A study of Mus musculus with 3 samples.

Results

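Fabp7 and 6 other genes of fatty acid and retinoid carriers were read in PDL-L2 cells, an immortalised fibroblastic line derived from mouse periodontal ligament, the tissue that joins the tooth root to the jaw bone. The 7 genes are Fabp7, Fabp3, Fabp4, Fabp5, Crabp1, Crabp2 and Rbp4. They were found by taking every probe set whose annotation gives one of these symbols as its only gene, which left 12 of 45101 probe sets and 7 of 18193 genes. Fabp7 was chosen by its signals on the siCont arrays, as the gene with the largest BMP-2 ratio that the study listed, so its reading with siCont and BMP-2 is a description and supports nothing. The other 6 were added as its relatives by family or ligand. The data hold 3 arrays of total RNA, 1 for each of 3 conditions. One culture was transfected with a non-targeting siRNA pool (siCont) and received vehicle. Another with siCont received recombinant human BMP-2 at 250 ng/ml. The last was transfected with an siRNA pool that targets endoglin (siENG) and received BMP-2 at the same dose. The exposure of 12 h began 48 h after transfection, in differentiation medium, and no array of siENG cells with vehicle was analysed here. The cells are 1 line and each condition was read once, so replicate error is unknown and no test is given for any ratio.

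Fatty acid binding proteins are small proteins of the cell interior, each folded into a barrel that holds a long-chain fatty acid. They carry their ligand to membranes, to the enzymes that use it, and in some cases to nuclear receptors of the PPAR family. Crabp1 and Crabp2 have the same fold and hold retinoic acid, the active form of vitamin A, whereas Rbp4 belongs to another fold and carries retinol in blood plasma. Fabp7, the brain type, is best known from radial glia, where it is a target of Notch, and Fabp4 from fat cells and macrophages.

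Fabp7 lies on chromosome 10 of the mouse genome (GRCm38.p6), from 57784923 to 57788450, and Crabp1, Fabp3 and Rbp4 lie on chromosomes 9, 4 and 19. Fabp5 (10012585 to 10016610) and Fabp4 (10204342 to 10208616) share a stretch of chromosome 3 with 3 relatives, Pmp2, Fabp9 and Fabp12, and Crabp2 lies further along the same chromosome. RefSeq promoters were found for 4 of the 7 genes, Fabp7, Fabp3, Crabp1 and Rbp4. That of Fabp7 is shown because Fabp7 carried by far the largest difference of the group. The 250 bases before its start, chr10:57784673-57784922 on the plus strand, read 5′ to 3′ with matches to the motifs searched in capitals:

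Fabp7 promoter: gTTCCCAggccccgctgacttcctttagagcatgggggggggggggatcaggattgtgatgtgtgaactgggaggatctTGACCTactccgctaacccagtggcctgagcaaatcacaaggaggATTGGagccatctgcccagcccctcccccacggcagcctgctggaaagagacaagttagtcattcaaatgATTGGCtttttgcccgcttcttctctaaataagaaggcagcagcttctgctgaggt

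Motifs were searched on both strands, and the letters were chosen with this sequence in view. The first capitals match TGGGAA, the core bound by the Notch mediator RBPJ, on the minus strand at bases -249 to -244 from the start, and 21.6% of 32851 promoters of the same length hold such a match. The second match AGGTCA, a half-site of nuclear receptors, on the minus strand at -171 to -166 (14% of promoters). The letters ATTGG, the CCAAT box read on the other strand, occur 2 times in the window (33.8%), and the second copy overlaps TTGGC, a half-site of NFI factors, at -55 to -51 (41.5%). No match was found in this window to CAGAC (42.2%) or GGCGCC (9.59%), letters bound by Smads, nor to the POU octamer ATTTGCAT (1.6%) or to TATAAA (12.4%). GGCGCC was found 1 time in the windows of Fabp3 and Crabp1. A match is a description of letters and not of binding.

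Values are linear signal intensities as the authors deposited them, in arbitrary units. Precision depends on the signal, so log2 ratios of the carriers are set beside the robust SD of log2 ratios among probe sets of similar signal. For other genes the robust SD is given only in places. This spread is taken across probe sets and does not measure variation between cultures. A signal was read as background where it did not exceed 13.1, the highest signal of 27 control probe sets made for Bacillus genes. Genes were counted only where 1 of the 2 signals compared reached 23, the median signal of the 3 arrays, and a ratio of 2 or more or 0.5 or less was the rule for a call. The siENG array was brighter. Its 2% trimmed mean signal was 166, against 141 and 143 on the siCont arrays, and the median log2 ratio of probe sets past the limit was 0.21 over siCont BMP-2 and 0.22 over vehicle. A ratio "relative to all probe sets" has this median subtracted. Below, 3 signals in a row are those of siCont vehicle, siCont BMP-2 and siENG BMP-2. Endoglin itself had signals of 286, 299 and 108, and in its second probe set 121, 121 and 45.3. Fibroblast markers were bright, with Col1a2 between 9569 and 10255 and Postn, the matrix protein periostin, between 4428 and 5491. Of 7 markers of ligament fibroblasts 6 exceeded background on every array, and Aspn was at 8.3 or less.

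The Fabp7 signal was 221 in vehicle-treated cells, 1468 after BMP-2 and 1018 after BMP-2 in cells given siENG. Both arrays of BMP-2-treated cells were therefore far above the vehicle array, and the array without knockdown was the higher of the pair. BMP-2 over vehicle thus gave a log2 ratio of 2.73, a 6.63-fold difference, beside a robust SD of 0.15 at this signal. Among 6723 genes whose higher signal reached 152, the 75th percentile, it was the largest. The next was Hey1 at 2.70, and Smad6 followed at 2.09. Among 10810 genes past the lower limit of 23 Fabp7 ranked 19. Only 1 probe set names Fabp7, so no second reading of the gene was had on these arrays. Apart from the arrays, the study reported that BMP-2 also induced Fabp7 by real-time PCR in separately prepared samples.

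The siENG array was not used when Fabp7 was picked, although it was known when the rule was written and the vehicle signal in its ratio is one that chose the gene. On it Fabp7 exceeded vehicle with a log2 ratio of 2.20, or 1.98 relative to all probe sets, where the robust SD was 0.30. This ranked 10 among 7130 genes whose higher signal reached 152. In signal the siCont BMP-2 array exceeded siCont vehicle by 1246, and the siENG array exceeded that same vehicle array by 797. The smaller excess was 64.0% of the larger, or 52.7% once the arrays were scaled to the same trimmed mean. Without a vehicle array of siENG cells, an effect of the knockdown alone on Fabp7 could not be separated. The share of the BMP-2 response left after knockdown was therefore not measured. Between the BMP-2-treated arrays the log2 ratio of siENG over siCont was -0.53, and -0.74 relative to all probe sets, both larger than the robust SD of 0.22. Neither reached a ratio of 0.5. The comparisons share arrays, since the siCont BMP-2 array enters both BMP-2 over vehicle and siENG over siCont, and a high reading there raises the former and lowers the latter.

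**Figure D1:**
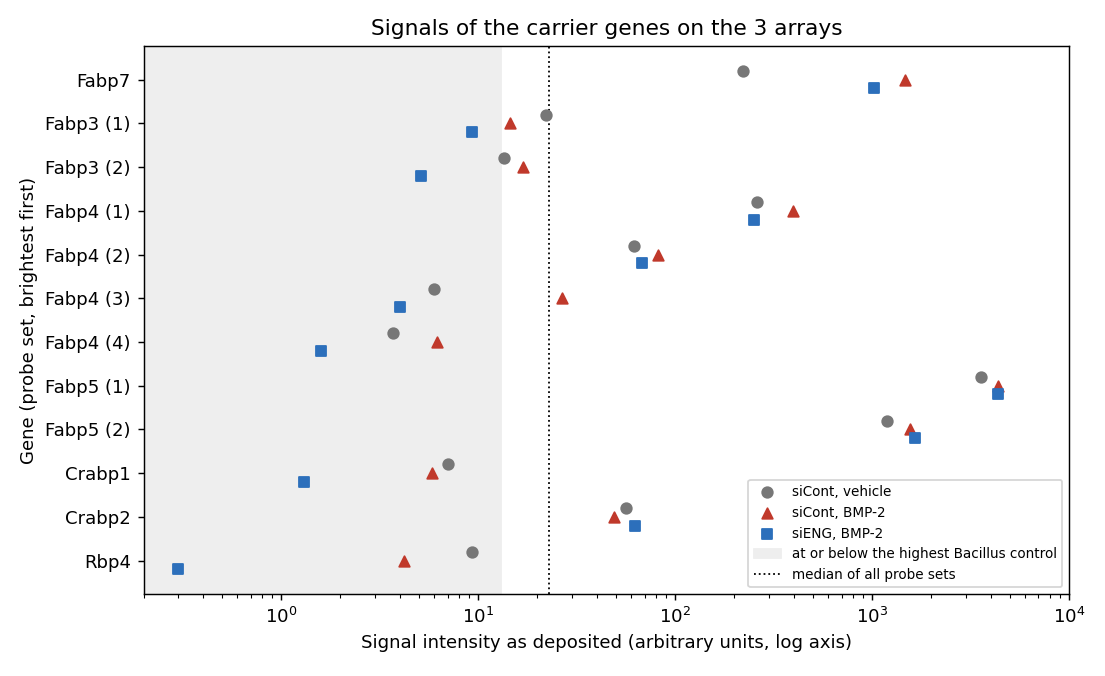
Signal intensity (horizontal, log axis) of the 12 probe sets on the 3 arrays, with 1 point per array and no error bars, since there are no replicates. Grey shading covers signals up to 13.1 and the dotted line marks 23. Fabp7 separates the vehicle array from both BMP-2 arrays, the Fabp5 points lie close together, and Crabp1, Rbp4 and the dimmest Fabp4 probe set lie wholly in the shading. Positions should be compared within a row, not between genes.

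Of the 7 genes, 4 passed the limit of 23 in each comparison: Fabp7, Fabp4, Fabp5 and Crabp2. With BMP-2, 1 of these 4, Fabp7, had a ratio of 2 or more, against 1.8% of all genes past the limit, and 0 had 0.5 or less (1.57%). The first count follows from how Fabp7 was picked. With siENG over siCont, 0 of 4 were at 2 or more (4.04% of genes) and 0 at 0.5 or less (1.66%), as deposited. Relative to all probe sets the counts were also 0, against 2.32% and 2.7%. For siENG with BMP-2 over vehicle 1 of 4, again Fabp7, was at 2 or more (3.99%) and 0 at 0.5 or less (1.73%), and the counts were the same relative to all probe sets (2.25% and 2.85%). At the limit of 152, which 3 of the 7 genes passed in each comparison, the calls among members were the same. There the shares of all genes at 2 or more and at 0.5 or less were 0.506% and 0.0744% with BMP-2, 1.75% and 0.281% for siENG over siCont, and 2.22% and 0.393% for siENG with BMP-2 over vehicle.

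Fabp4, the adipocyte type, was read by 4 probe sets. The brightest (1417023_a_at) had signals of 261, 397 and 252. The second (1451263_a_at) had 61.7, 81.7 and 68.0. In both the siCont BMP-2 array was the highest and the other arrays lay near each other. Over vehicle, BMP-2 gave log2 ratios of 0.60 in the first and 0.41 in the second, where the robust SDs were 0.17 and 0.29. With siENG over siCont they were -0.65 and -0.27, or -0.86 and -0.48 relative to all probe sets, against robust SDs of 0.33 and 0.40, so that the second reading as deposited lay within the spread.

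Another probe set of Fabp4 (1424155_at) exceeded background on the siCont BMP-2 array alone. Its signals were 6.0, 26.8 and 4.0, so the siCont BMP-2 signal was at least 2.05-fold higher than either of the others. The last (1425809_at), with signals of 3.7, 6.2 and 1.6, stayed in background on every array. Over vehicle, siENG with BMP-2 gave log2 ratios of -0.05 and 0.14 in the brighter pair, or -0.27 and -0.08 relative to all probe sets. The sign of the second thus depends on the scaling, and all 4 values are smaller than the robust SDs of 0.32 and 0.44. Fabp4 at 12 h was therefore above vehicle on the siCont BMP-2 array and could not be told from vehicle on the siENG array.

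Fabp4 is also a marker of fat cells, macrophages and endothelium, so the defining genes of those cells were read beside it. Of 4 adipocyte markers, 0 exceeded 13.1 on either siCont array and 1, Retn at 24.5, did on the siENG array. Their summed signal was 19.6, 12.4 and 40.9 from vehicle to siENG, with Adipoq at 6.3 or less and Lep at 2.0 or less. The nuclear receptor Pparg, which drives fat cell formation, had signals of 1.9, 2.5 and 12.6, all in background. Of 5 endothelial markers, Kdr alone exceeded background, with 4.2, 25.8 and 20, and the list summed to 18.4, 42.4 and 42.4. Pecam1 was at 4.0 or less and Cdh5 at 7.2 or less. Of 6 leukocyte markers 3, 4 and 3 exceeded background, and they summed to 141, 127 and 221. Among them Ptprc was at 8.1 or less, Cd68 had signals of 71, 50 and 118, and Lyz2, a macrophage gene, had 11.5, 25.9 and 36.3. Csf1r had 40.6, 31.4 and 47.7 in its brightest probe set, while another was highest with vehicle, at 43.4, 31.1 and 37.6. Adgre1 had 13.6, 15.1 and 10.3, the last in background. These sums are as deposited, and the siENG array was the brightest. Kdr and Lyz2 were in background with vehicle. The part of other cells in the Fabp4 readings was not tested. In a bulk sample a change in the number of cells and a change in RNA per cell cannot be told apart.

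**Figure D2:**
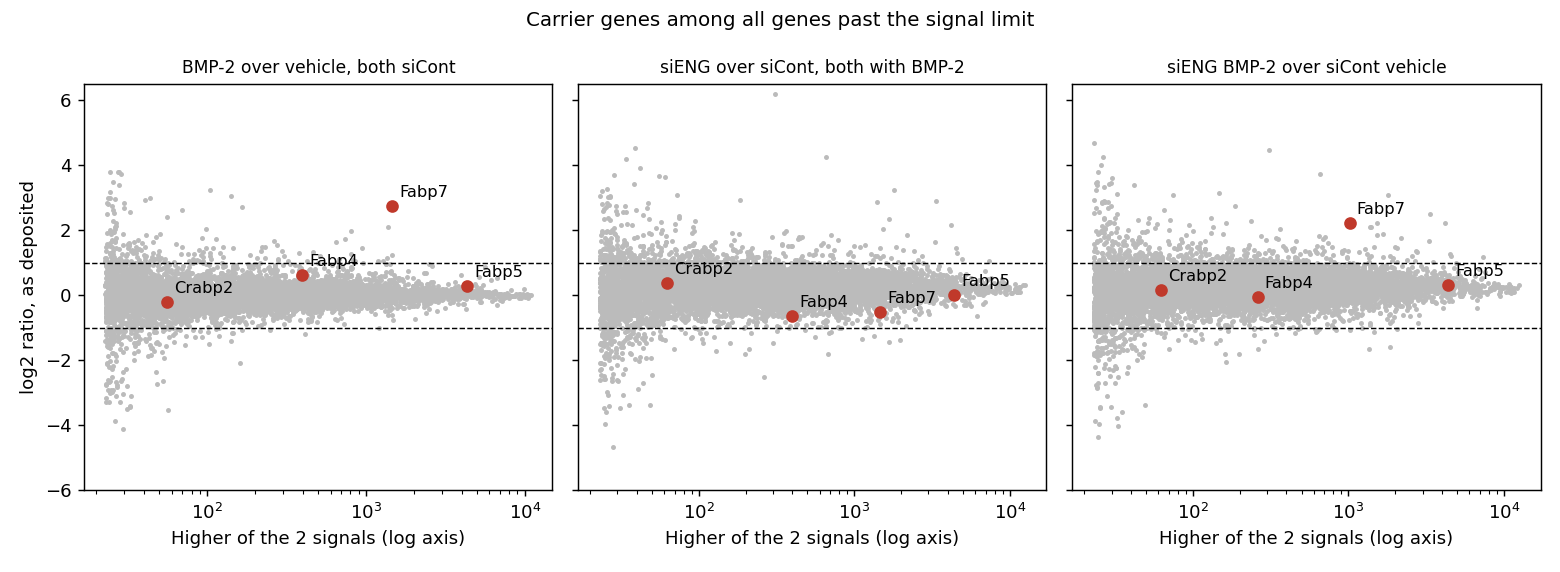
Log2 ratio (vertical, signals as deposited) against the higher of the 2 signals (horizontal, log axis) for genes whose higher signal reached 23, in each of the 3 comparisons. Red points are the 4 carrier genes past the limit, grey points all other genes, and dashed lines mark ratios of 2 and 0.5. Fabp7 stands above nearly all genes of like signal over vehicle on both BMP-2 arrays, and in the middle panel the 4 carriers lie between the dashed lines.

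Fabp5, the epidermal type, which can hand its ligand to Ppard, was bright on all arrays. Its first probe set (1416021_a_at) had signals of 3561, 4343 and 4378. The second (1416022_at) had 1195, 1566 and 1658. In both the vehicle array was the lowest and the BMP-2 arrays differed little. Over vehicle, BMP-2 gave log2 ratios of 0.29 in the first probe set and 0.39 in the second, each above the robust SD of 0.11. Although small beside Fabp7, these ratios placed Fabp5 at rank 558 of 6723 genes past 152, and Fabp4 at rank 128.

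With siENG over siCont, Fabp5 had log2 ratios of 0.01 and 0.08 as deposited and of -0.20 and -0.13 relative to all probe sets. The sign turned with the scaling, and all 4 values were smaller than the robust SD of 0.22. For siENG with BMP-2 over vehicle they were 0.30 and 0.47 as deposited. Relative to all probe sets they were 0.08 and 0.25, of which the second was just above the robust SD of 0.22. The annotation also holds a pseudogene of Fabp5 and another of Fabp3, and whether their transcripts reach these probe sets was not tested.

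Fabp3, the heart and muscle type, was near background. Its brighter probe set (1416023_at) had signals of 22.0, 14.5 and 9.3 from vehicle to siENG, and the other (1444844_at) 13.6, 16.8 and 5.1. The probe sets went opposite ways with BMP-2, with log2 ratios of -0.60 and 0.31 against robust SDs of 0.60 and 0.71. The siENG array was the lowest in both and within background, so the siCont BMP-2 signal was at least 1.11-fold and at least 1.28-fold higher than it. Neither probe set passed the limit of 23 on any array.

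Crabp2, which brings retinoic acid to its nuclear receptors, had signals of 56.4, 48.7 and 62.5. The 3 arrays lay close together. Its log2 ratios were -0.21 with BMP-2, 0.36 for siENG over siCont and 0.15 for siENG with BMP-2 over vehicle, each smaller than its robust SD of 0.34, 0.42 and 0.44. Relative to all probe sets the last 2 were 0.15 and -0.07, so that the last changed sign with the scaling. A Crabp2 difference was not detectable at this precision.

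Crabp1, which also holds retinoic acid in the cell, had signals of 7.0, 5.8 and 1.3, and Rbp4, the plasma carrier of retinol, 9.3, 4.2 and 0.3. Both were lowest on the siENG array, but no signal of either gene exceeded background, so their order was not measured and no ratio is given. The median Bacillus control was dimmest on the siENG array, with signals of 2.4, 3.6 and 1.5, but the highest was dimmest with vehicle, at 11.2, 13.1 and 12.1.

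Most other carriers of the family were in background. Of 14 further lipid and retinoid binding proteins, 12 were named by a probe set, and 2 of these passed the limit, Dbi and Scp2. Dbi, which binds acyl-CoA, had signals of 2864, 2929 and 2617, and Scp2, a sterol carrier, 1416, 1400 and 1612. Their log2 ratios with BMP-2 were 0.03 and -0.02, within the robust SD of 0.11, and neither reached a ratio of 2 or 0.5 in any comparison by its brightest probe set. The dimmest probe set of Scp2 had signals of 10.0, 30.0 and 21.4, in background with vehicle alone. Fabp9, Fabp12 and Pmp2, the chromosome 3 neighbours of Fabp4 and Fabp5, had signals of 12.9 or less on every array, in background.

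The 5 genes whose course over the 3 arrays was most like that of Fabp7 were Hey1, Smad7, Smad6, Mmp11 and Tmem268. Likeness was the distance between the pairs of log2 ratios, BMP-2 over vehicle and siENG over siCont, among 7180 genes with a signal of 152 or more on any array. Hey1, a repressor of the Hairy family, was nearest at a distance of 0.19, with signals of 25.6, 167 and 131. The inhibitory Smads followed at 0.82 for Smad7 and 0.84 for Smad6, which had log2 ratios with BMP-2 of 1.96 and 2.09. The matrix metalloproteinase Mmp11 lay at 1.04, with signals of 222, 737 and 628, and Tmem268 at 1.16. With siENG over siCont the 5 ran from 0.01 in Smad6 to -0.86 in Tmem268. Since 3 arrays fix each course, nearness of this kind is a description with no test.

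**Figure D3:**
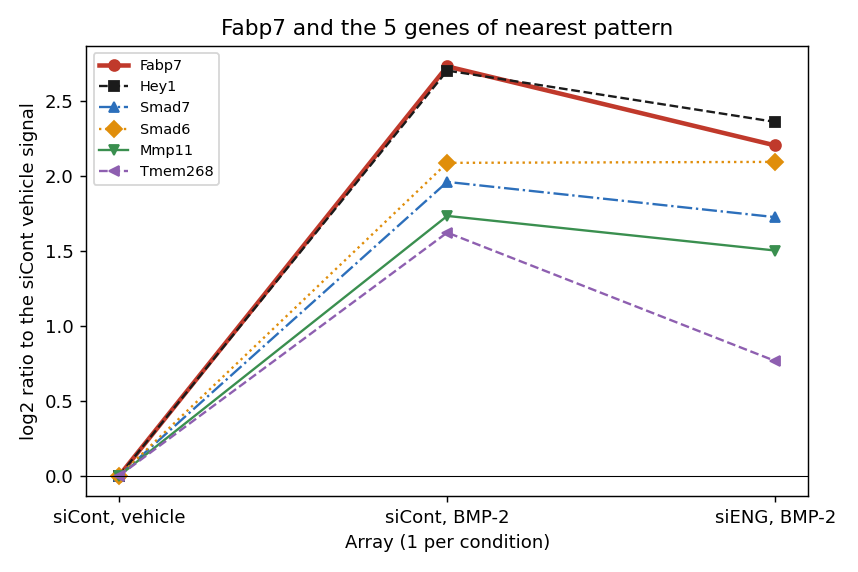
Log2 ratio to the siCont vehicle signal (vertical) on the 3 arrays (horizontal, 1 array per condition) for Fabp7 and the 5 genes nearest to it. Lines join the arrays for each gene and there are no error bars, since there are no replicates. Fabp7 and Hey1 nearly coincide on the siCont BMP-2 array at 2.73 and 2.70, and Tmem268 is the lowest on the siENG array.

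Genes that have been linked to Fabp7 transcription in the nervous system were read as a group. Of 12 such genes 9 passed the limit. With BMP-2 0 reached a ratio of 2, against 1.8% of all genes past the limit, and 0 a ratio of 0.5 (1.57%). The median log2 ratio was -0.19 beside 0.01 for all genes past the limit. Hes1, a Notch effector, had signals of 105, 190 and 214 and a log2 ratio with BMP-2 of 0.85, against a robust SD of 0.26. The study listed Hes1 among the genes that BMP-2 raised more than 2-fold, a ratio not reached by dividing the signals used here. How the study computed its fold changes is not stated, so they may be another measure than this ratio. Notch3 had 201, 136 and 161, with -0.56, and its other probe set gave -0.84. Nfia and Nfib of the NFI family had -0.43 and -0.37, where the robust SDs were 0.26 and 0.19. A dimmer probe set of Nfia, at 13.7, 27.1 and 31.2, went the other way, its log2 ratio being 0.98. With siENG over siCont the median was 0.25 beside 0.24 for all genes. Of the 9 genes 0 reached either ratio, against 4.04% and 1.66% of all genes. Nfib was the highest, with a log2 ratio of 0.92, and 0.71 relative to all probe sets. Its other probe sets ran from -0.13 to 1.09. For siENG with BMP-2 over vehicle 1 of 9, Hes1, was at 2 or more (3.99% of all genes) and 0 at 0.5 or less (1.73%). The log2 ratio of Hes1 there was 1.03, but 0.81 relative to all probe sets, short of a ratio of 2. The neural factors Pax6 and Pou3f2 exceeded background on the siENG array alone, at 16.2 and 17.5. Of 4 glial markers, Sox10 had signals of 16.0, 21.4 and 26.4, Gfap of 18.8, 3.7 and 16.9, and S100b stayed in background. A dimmer probe set of Sox10 had 21.7, 4.7 and 4.6, highest with vehicle. Mbp had 31.5, 36.1 and 28.3 in its brightest probe set. Another of its probe sets had 2.1, 23.6 and 15.2, and a further one 21.4, 5.9 and 10.1, in the opposite order. The remaining probe sets of Mbp stayed in background. The brightest probe sets of the 4 genes summed to 75.3, 68.6 and 79.8. The part of glial cells in the Fabp7 readings was not tested.

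Retinoid enzymes and receptors were measured on the arrays even though Crabp1 and Rbp4 were in background. Of 18 genes named by a probe set 12 passed the limit with BMP-2. Of these 1 reached a ratio of 2 (1.8% of all genes), 0 a ratio of 0.5 (1.57%) and 11 neither. The list had a median log2 ratio of -0.12 beside 0.01 for all genes. The gene past the limit was Cyp26b1, which breaks down retinoic acid, with signals of 22.5, 49.3 and 19.2. It was highest on the siCont BMP-2 array, with log2 ratios of 1.13 for BMP-2 over vehicle and -1.36 for siENG over siCont, or -1.57 relative to all probe sets. The signals are low, and the robust SDs were 0.45 and 0.56.

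Rdh10, which makes retinaldehyde from retinol, had signals of 187, 273 and 235 and a log2 ratio with BMP-2 of 0.55 against a robust SD of 0.19. Its second probe set gave 0.22. Aldh1a1, which makes retinoic acid from retinaldehyde, went the other way, with signals of 2481, 1859 and 1590. Its log2 ratio was -0.42 with BMP-2 and -0.23 for siENG over siCont, or -0.44 relative to all probe sets, against robust SDs of 0.11 and 0.22. Thus vehicle was the highest array for Aldh1a1 and the lowest for Rdh10.

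The nuclear receptors of the same list did not follow Fabp7, and they differed among themselves. Rarb, with signals of 227, 185 and 179, was highest with vehicle and lowest with siENG, whereas Rarg and Rxra were highest with siENG. Rxrb had signals of 299, 241 and 417, and Rara of 42.8, 44.3 and 78.1. Both were highest on the siENG array, with log2 ratios over siCont of 0.79 and 0.82, or 0.58 and 0.61 relative to all probe sets. The alcohol dehydrogenase Adh7 was likewise highest there, at 181, 154 and 303, a relative log2 ratio of 0.76, although its second probe set gave 0.37 as deposited. For siENG over siCont the list had a median of 0.39 beside 0.24 for all genes. Of 12 genes 0 were at 2 or more (4.04% of all genes) and 1, Cyp26b1, at 0.5 or less (1.66%).

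Of 15 genes for fatty acid uptake and activation 9 passed the limit. With BMP-2 0 reached a ratio of 2 (1.8% of all genes), 1 a ratio of 0.5 (1.57%) and 8 lay between. The median log2 ratio was -0.05 beside 0.01 for all genes. Acsl4, which activates long-chain polyunsaturated fatty acids, had signals of 471, 748 and 574, and was highest on the siCont BMP-2 array in all 3 of its probe sets. Their log2 ratios with BMP-2 were 0.67, 0.79 and 0.87, and with siENG over siCont -0.38, -0.76 and -0.33. Acsl3, a relative, had 278, 371 and 372, with a log2 ratio of 0.42 against a robust SD of 0.17, and lay at like signals on both BMP-2 arrays.

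The transporter gene Slc27a3 was lowest on the siCont BMP-2 array, with signals of 46.3, 14.2 and 32.4. Its log2 ratios were -1.71 with BMP-2 and 1.19 for siENG over siCont, or 0.98 relative to all probe sets. The second ratio therefore reached 2 only as deposited. The robust SDs were 0.51 and 0.63. Both ratios rest on the reading of 14.2 in a single probe set, just above the background limit of 13.1. Lpl, which frees fatty acids from lipoproteins, had 106, 73.0 and 108, a log2 ratio of -0.54 with BMP-2, and its dimmer probe set gave 0.16. Slc27a1 and Ppard, to whose product Fabp5 delivers its ligand, were higher with siENG. Their relative log2 ratios were 0.59 and 0.45, against robust SDs of 0.40 and 0.42. The second probe set of Slc27a1 gave -0.28 as deposited. The fatty acid translocase Cd36 had signals of 9.7 or less, in background. For siENG over siCont the list had a median of 0.05 beside 0.24 for all genes. Of 9 genes 1 was at 2 or more (4.04% of all genes) and 0 at 0.5 or less (1.66%).

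**Figure D4:**
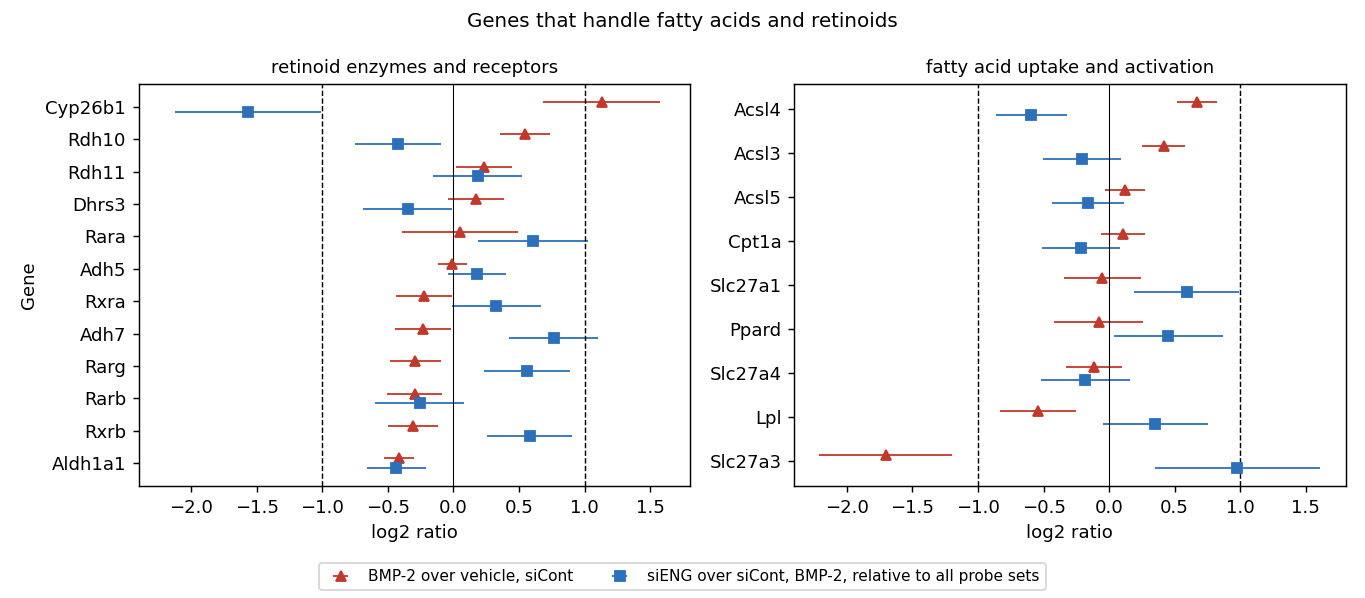
Log2 ratios (horizontal) of the genes past the limit in the retinoid list (left) and the fatty acid list (right), ordered by BMP-2 over vehicle. Red triangles are BMP-2 over vehicle and blue squares siENG over siCont relative to all probe sets, bars are plus and minus 1 robust SD of probe sets of similar signal and not replicate error, and dashed lines mark ratios of 2 and 0.5. Cyp26b1 is at 1.13 and -1.57 and Acsl4 at 0.67 and -0.59, whereas Slc27a3 is at -1.71 and 0.98.

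Keratinocyte markers were also read, as Fabp5 is abundant in epidermis. Of 4 such markers 3, 2 and 1 exceeded background, with summed signals of 108, 104 and 103, and Krt1 was at 2.6 or less. Krt10 had signals of 62.1, 74.5 and 77.8, lowest with vehicle as in Fabp5. Its log2 ratio with BMP-2 was 0.26, smaller than the robust SD of 0.29. Krt5 exceeded background on both siCont arrays and, unlike Fabp5, was lowest on the siENG array, at 10.9. Krt14 had signals of 25.2, 7.3 and 11.8, highest with vehicle. The part of such cells in the Fabp5 readings was not tested.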

How the data were processed

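Total RNA of 3 cultures was read on Affymetrix mouse genome arrays. For each probe set the authors deposited a linear signal intensity. GCOS 1.4 is named in the submitters' processing notes. The algorithm and scaling were not given in the sources used here and may move ratios to the siENG array. Of 45101 probe sets, 64 controls were left out of ratios. Genes were named through RefSeq identifiers (GRCm38.p6) where a probe set had a single symbol, and a gene was read by its probe set of highest mean log2 signal. A signal of 0 was set to 0.1. The robust SD (scaled median absolute deviation) was taken in 20 bins of mean log2 signal over all probe sets. Ratios, the direction of calls and the robust SD were tested on simulated data, and counts were not. The noise there was set lower than in these arrays, and changes were planted only in probe sets well above the limit. The members, gene lists and markers were chosen with earlier results of these data known. Named beside the members were endoglin, up to 4 genes a list by largest absolute log2 ratio in the first 2 comparisons, and the 5 genes nearest to Fabp7. Markers and other listed genes given by signal alone were named after their values were seen. Depth has no counterpart on arrays, and the number of arrays limits the precision. Python 3.11.15, numpy 2.4.6, pandas 2.3.3, statsmodels 0.14.6 and matplotlib 3.10.9 were used.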

Additional observations from a re-analysis of the deposited data

How the results depend on the processing

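The log2 ratio of Fabp7 ranged from 2.70 to 2.73 with BMP-2, from -0.74 to -0.53 for siENG over siCont and from 1.96 to 2.20 for siENG with BMP-2 over vehicle, as deposited and under 5 alternatives: a floor at the median, quantile normalization, the same 2% trimmed mean, median centring and lowess centring (fraction 0.3). Every Fabp7 signal lay above the floor and the siCont arrays were of like brightness, so these settings could hardly move the ratio with BMP-2. The narrow range with BMP-2 does not measure replicate error. Of 130 recomputed ratios of member probe sets, 14 moved by more than the robust SD, 9 of them in Fabp5, and 0 called ratios reversed. With no signal limit, Rbp4 made 1 member at 0.5 or less with BMP-2. Crabp1 and Rbp4 made 2 with siENG over siCont, and Fabp3 with them made 3 for siENG with BMP-2 over vehicle. These signals are at or near background. With the same trimmed mean, Fabp3 made 1 for siENG with BMP-2 over vehicle. When any probe set could count, Fabp4 with Fabp7 made 2 members at 2 or more with BMP-2, and Fabp4 made 1 at 0.5 or less with siENG over siCont. The mean over probe sets also made 1 there. In Fabp4 these calls draw on probe sets in background on at least 2 arrays.

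Counts of all genes moved more. With BMP-2, 195 genes were at 2 or more and 170 at 0.5 or less. They were 1825 and 1883 with no limit, 34 and 5 with a limit at the 75th percentile, 78 and 43 with the floor, and 366 and 312 with any probe set. With siENG over siCont they were 438 and 180, against 2160 and 1906 with no limit, 125 and 20 at the 75th percentile, 270 and 45 with the floor, 278 and 256 after quantile normalization, 229 and 314 with the same trimmed mean, 252 and 293 after median centring, 292 and 258 after lowess centring, and 776 and 316 with any probe set. For siENG with BMP-2 over vehicle they were 433 and 188, against 2104 and 1990, 158 and 28, 290 and 55, 280 and 259, 220 and 350, 244 and 309, 292 and 257, and 736 and 325 in the same order. No paired analysis was possible because each condition has 1 array and no replicate number.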
